A study of Mus musculus with 7 samples.

Results

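The mouse mitochondrial genome (mtDNA) carries 13 protein-coding genes, and the 10 described here were taken from the count table by name: mt-Nd1, mt-Nd2, mt-Nd4, mt-Nd5, mt-Nd6, mt-Cytb, mt-Co1, mt-Co2, mt-Co3 and mt-Atp6. They are 10 of 52740 gene identifiers in the table, all 10 were found, and all 10 passed the filter on low counts, which left 16990 genes to test. RNA was sequenced from the retinal pigment epithelium (RPE), the pigmented cell layer behind the photoreceptors, of mice labelled 24 months old. The WT group held 4 mice (female F1, F2 and F3 and male M1) of the C57BL6/J strain, and the LC3b-/- group held 3 mice (female F1 and F3 and male M) of the stock B6;129P2-Map1Lc3btm1Mrab/J, with a targeted allele of Map1lc3b, which encodes the autophagy protein LC3B. Each library came from 1 mouse, with no pooling, and values for single libraries are always given in this order of mice. The groups thus come from different stocks, and the mouse names carry a group number that is never shared between genotypes and whose meaning was not given, so genotype, strain background and that group number cannot be told apart. RPE was freed enzymatically from eyecups without cornea, ciliary body or lens, and libraries were stranded and made from polyadenylated RNA.

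The respiratory chain passes electrons from NADH and succinate to oxygen and pumps protons across the inner mitochondrial membrane, and ATP synthase uses the proton gradient to make ATP. Complexes I, III and IV and ATP synthase each contain a few core subunits made inside the mitochondrion from mtDNA and many subunits made in the cytosol from nuclear genes. Both strands of mtDNA are transcribed as long precursors that are cut, mostly at tRNAs, into separate mRNAs, so mRNAs read from the same strand begin within shared precursors and are set apart by processing and decay. The RPE is rich in mitochondria and relies on oxidative metabolism, and LC3B takes part in autophagy, which also clears mitochondria. The comparison of LC3b-/- with WT asks whether the mtDNA-encoded mRNAs differ between the genotypes.

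The group took a large share of every library and did not differ between genotypes beyond the spread of the libraries. The 10 genes held 11.5% to 15.9% of the counts in the 4 WT libraries and 13.6% to 18.5% in the 3 LC3b-/- libraries, ranges that overlap. In the comparison of genotypes, edgeR called 0 of the 10 genes, where it called 0.235% of all genes tested. The fitted log2 fold changes (LC3b-/- over WT) lay between 0.04 for mt-Co3 and 0.24 for mt-Co1. Their median was 0.12, against 0.01 over all genes tested. mt-Co1 had the highest level per length in all 7 libraries, and with pseudogene copies summed the order of the other members was nearly the same in each. For 3 members, nuclear pseudogenes of identical sequence held more counts than the genes themselves, and adding them changed the levels more than the fitted difference between genotypes.

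The libraries held 24495952 to 35616134 counts each. Map1lc3b checked the labels: it had 130, 117, 104 and 110 CPM (counts scaled to a common library size with TMM factors) in WT and 6.76, 8.32 and 6.76 in LC3b-/-, a log2 fold change of -3.98 (SE 0.15, edgeR adjusted p = 1.86e-04). All 16 RPE markers examined were detected, with summed levels of 33010 to 52056 CPM in WT and 14783 to 31084 CPM in LC3b-/-. Markers of ocular surface epithelium (8 keratin and other genes) summed to 5.69 to 2061 CPM in WT and 2114 to 16392 CPM in LC3b-/-, and photoreceptor markers to 298 to 21978 CPM and 107 to 7552 CPM. Endothelial markers summed to 248 to 792 CPM in WT and 957 to 1049 CPM in LC3b-/-, and the sums of markers of fibroblasts, Müller glia, macrophages and microglia, erythrocytes and skeletal muscle overlapped between the groups. Among the 6 lens markers Cryba1 was at 0 in every library. The library LC3b-/- F1 had the highest level of ocular surface markers, the lowest level of RPE markers and the highest share of mtDNA counts, and leaving it out turned the direction of 9 of the 10 members, so values without it are given beside the main results; the part of these cell types in the results was not tested. In bulk RNA, fewer cells of a type and less RNA per cell cannot be told apart.

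The sequences come first, because they set what a count on a member can mean. On GRCm39, chr1:24650616-24655269 (minus strand) holds a copy of mtDNA bases 6390 to 11042 that matches over 4654 aligned positions with 2 mismatches and 1 gap (99.9% identity). The annotation lists unprocessed pseudogenes there that repeat mt-Co2 (Gm28661), mt-Atp6 (Atp6-ps) and mt-Co3 (Gm28437) almost from end to end, the first 876 of 1378 bases of mt-Nd4 (Gm28439) and the last 483 of 1545 bases of mt-Co1 (Gm29216). The 60 bases that open mt-Atp6, the subunit a gene of ATP synthase at chrM:7927-7986 (plus strand), and those that open Atp6-ps at chr1:24653673-24653732 (minus strand) are printed with the start codon in capitals to show that no base separates them.
mt-Atp6: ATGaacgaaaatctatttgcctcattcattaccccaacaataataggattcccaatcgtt
Atp6-ps: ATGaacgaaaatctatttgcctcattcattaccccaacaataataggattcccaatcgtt

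Of all stretches of 100 bases, the length of a read here, within mt-Atp6, 99.5% occur unchanged in Atp6-ps, as do 99.5% of those of mt-Co2 in Gm28661 and 99.9% of those of mt-Co3 in Gm28437. A read from these genes therefore names no single origin, and the estimated counts hold the division that the quantifier made. For mt-Co1 and Gm29216, 1 base differs over the shared 483 bases, A1066T, counted from the first base of mt-Co1, with the base of mt-Co1 first and that of the copy last. The lines show it in capitals, at chrM:6390-6449 (plus strand) and chr1:24655210-24655269 (minus strand).
mt-Co1: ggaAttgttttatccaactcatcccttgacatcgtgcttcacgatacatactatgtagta
Gm29216: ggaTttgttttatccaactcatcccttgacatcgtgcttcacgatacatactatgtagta

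For mt-Nd4, the copy stops inside the gene, so 60.8% of the 100-base stretches of mt-Nd4 occur in Gm28439 and the rest do not. The line for mt-Nd4 (chrM:11013-11072, plus strand) shows in capitals the bases that follow the last base of the annotated copy (chr1:24650616-24650645, minus strand).
mt-Nd4: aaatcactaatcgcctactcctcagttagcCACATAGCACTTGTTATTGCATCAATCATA
Gm28439: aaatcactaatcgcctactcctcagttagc

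Among annotated transcripts, no copy of at least 95% identity over at least 100 bases was found for mt-Nd1, mt-Nd6 or mt-Cytb. A match counted as a copy only if it covered at least 80% of the matched transcript. Copies outside annotated transcripts or within longer ones were not sought. The copies found for mt-Nd2 (Gm13339, chromosome 2) and mt-Nd5 (Gm4076, chromosome 13) held 22 and 33 counts over all 7 libraries. Further copies of mt-Co1 (Gm13340) and mt-Co2 (Gm13341) on chromosome 2, at 97.6% and 95.9% identity, held 9957 and 2588 counts. These less similar copies thus held fewer counts than the copies of members on chromosome 1.

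The identical copies of nearly full length held more counts than the genes they repeat. Atp6-ps held 2581740 counts over the 7 libraries where mt-Atp6 held 1484012, Gm28661 held 1956364 where mt-Co2 held 1440412, and Gm28437 held 1994314 where mt-Co3 held 1542949. As a share of gene and copy together, Atp6-ps took 59.7% to 65.8%, Gm28661 took 53.4% to 61.7% and Gm28437 took 52.9% to 60.2% of a library's counts. These shares overlapped between genotypes for Atp6-ps and Gm28661. For Gm28437 they were 56.2%, 52.9%, 56.0% and 55.0% in WT and 56.5%, 56.8% and 60.2% in LC3b-/-, so the LC3b-/- libraries lay above the WT libraries by a margin smaller than the spread within either group. Of the copies that repeat only part of a gene, Gm29216 held 548236 counts against 10270828 on mt-Co1. Gm28439, identical over its whole length, held 144137 against 3324758 on mt-Nd4. Their shares were 4.83% to 5.77% and 1.87% to 5.82%. Beside the deposited counts of these 5 genes, sums of gene and copies are given below, so that the division between them does not enter. Neither column says how much of the signal was transcribed from chromosome 1.

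**Figure D1:**
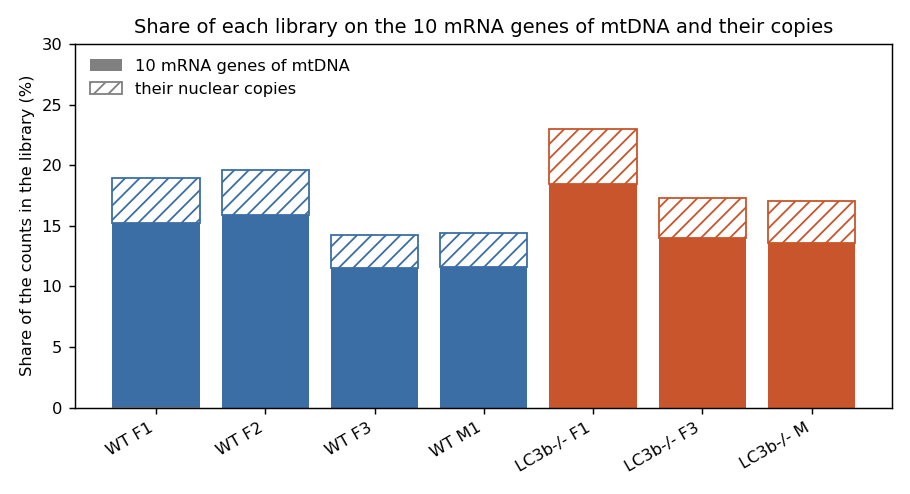
Share of the counts of each library (%, bars from 0) on the 10 mRNA genes of mtDNA (filled) and on their nuclear copies (hatched), for 4 WT and 3 LC3b-/- libraries. LC3b-/- F1 is highest at 18.5% for the genes alone, and the other LC3b-/- libraries lie within the WT range.

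The summed share varied more within each genotype than between them. The 10 genes took 15.3%, 15.9%, 11.5% and 11.6% of the counts in WT (mean 13.6% ± 2.36 SD, n = 4) and 18.5%, 14.0% and 13.6% in LC3b-/- (mean 15.4% ± 2.72 SD, n = 3). WT F3 and M1 were low, LC3b-/- F1 was high, and the remaining LC3b-/- libraries lay between the low and the high WT libraries. The means differed by 1.80 percentage points, less than the SD of either group, and without LC3b-/- F1 by 0.239. With the copies added, the shares were 18.9%, 19.6%, 14.3% and 14.4% in WT and 23.0%, 17.3% and 17.0% in LC3b-/-. The copies alone took 2.78% to 3.68% of WT libraries and 3.30% to 4.54% of LC3b-/- libraries. mt-Co1 was the gene with the most counts in every library, and 4 to 7 of the 10 genes were among the 10 highest of a library, together with 1 to 3 of the copies.

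Levels per length were compared as TMM-scaled CPM per kilobase of the annotated gene. No correction was made for the length of the fragments or for how fully the selection of polyadenylated RNA kept each mRNA. With gene and copies summed, the order of the means over all 7 libraries was mt-Co1 (33697), mt-Atp6 (28855), mt-Co2 (23984), mt-Cytb (22110), mt-Co3 (21806), mt-Nd4 (12137), mt-Nd1 (10335), mt-Nd2 (8027), mt-Nd5 (7288) and mt-Nd6 (193), all in CPM per kilobase. The subunits of complex IV, cytochrome b and ATP synthase subunit a were thus all above the subunits of complex I. Within single libraries each gene exceeded the next in this order in 7 of 7 libraries, except for mt-Cytb over mt-Co3 (5 of 7, ratio 0.956 to 1.03) and mt-Nd2 over mt-Nd5 (6 of 7, ratio 0.962 to 1.17), which could not be ordered. As deposited, neighbours from the fourth to the sixth place held their order in only 4 of 7 libraries (mt-Atp6 over mt-Nd1 and mt-Nd1 over mt-Co2), and 3 further pairs in 6 of 7. With the counts as deposited, mt-Atp6, mt-Co2 and mt-Co3 fell to 10555, 10169 and 9558 CPM per kilobase, beside mt-Nd1 and mt-Nd4 at 10335 and 11642. The place of these 3 genes among the mtDNA mRNAs therefore rests on how reads shared with chromosome 1 are assigned.

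**Figure D2:**
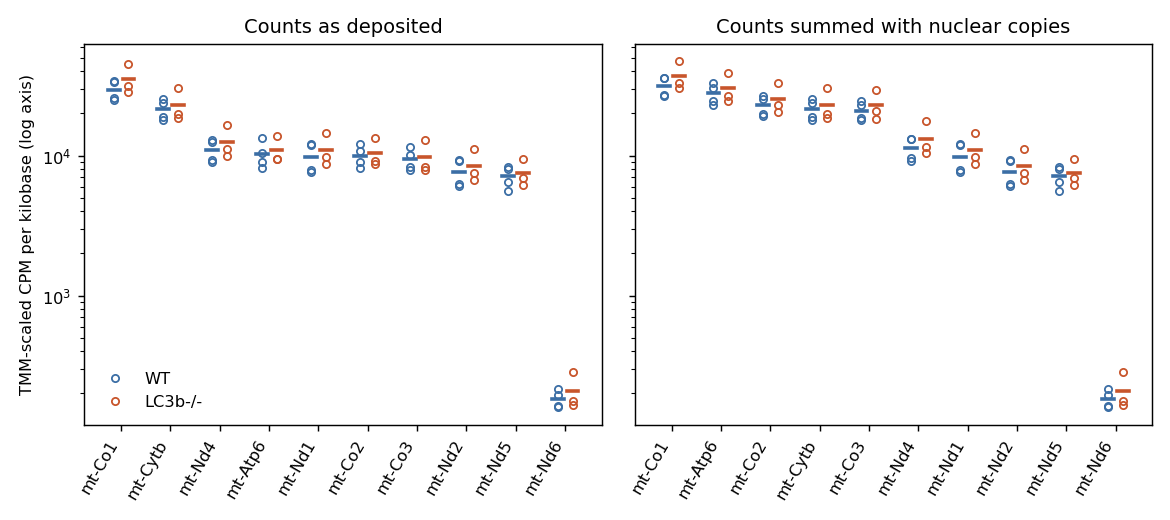
TMM-scaled CPM per kilobase (log axis) of the 10 genes in 4 WT (blue) and 3 LC3b-/- (orange) libraries, as deposited (left) and summed with nuclear copies (right), each in the order of its means; circles are libraries and lines are group means. With copies summed, mt-Atp6, mt-Co2 and mt-Co3 lie beside mt-Cytb, and mt-Nd6 is lowest in both at a mean of 193.

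mt-Nd6, a membrane subunit of complex I, stood far below the others. It had 101, 111, 83.9 and 82.5 CPM in WT and 147, 85.7 and 91.4 CPM in LC3b-/-, from 2148 to 3646 counts a library. Per kilobase, mt-Nd5 exceeded it by 33.7 to 42.4 times within single libraries. It is the only member read from the opposite strand of mtDNA (chrM:13552-14070, minus strand), and its last 14 bases overlap the end of mt-Nd5 on the other strand. Its sequence also differs in base composition: 28.1% G and 5.97% C, where the other 9 members have 7.996% to 16.1% G and 23.8% to 27.7% C. The first 60 bases (chrM:14011-14070, minus strand) are printed to show this, with the start codon in capitals. Whether the quantifier used the strand of the reads was not stated in the sources used here. How fully the selection of polyadenylated RNA kept mt-Nd6 was not measured, so its low level is a level in the libraries.
mt-Nd6: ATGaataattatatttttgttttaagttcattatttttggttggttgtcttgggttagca

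Neighbouring coding regions share bases at further places. mt-Atp8 and mt-Atp6, both subunits of ATP synthase, overlap by 43 bases in different frames, mt-Nd4l and mt-Nd4 by 7 bases and mt-Atp6 and mt-Co3 by 1 base. The overlap of mt-Atp8 with mt-Atp6, in capitals, is shown with 20 bases on either side (chrM:7907-7989, plus strand), since a read across it belongs to both genes.
mt-Atp8 and mt-Atp6: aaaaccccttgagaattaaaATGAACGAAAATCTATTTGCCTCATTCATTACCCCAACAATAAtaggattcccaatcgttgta

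The ends of mt-Co3, mt-Nd4 and mt-Cytb carry 1 base past the last whole codon, a T. In mammalian mitochondria such a base is completed to a stop codon by the poly(A) tail, and the tail is what a library of polyadenylated RNA selects. The last 30 bases of each are printed with this base in capitals (chrM:9361-9390, chrM:11515-11544 and chrM:15259-15288, all plus strand). The other 7 members end in a whole TAA or TAG codon.
mt-Co3: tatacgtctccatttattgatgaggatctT
mt-Nd4: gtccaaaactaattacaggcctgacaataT
mt-Cytb: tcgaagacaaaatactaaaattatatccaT

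Between genotypes, 0 of 10 members were called (by edgeR, the study's rule being a fold change of 1.5 or more and an adjusted p below 0.05), where 0.235% of all genes tested were. At an unadjusted p under 0.05, 0 of 10 passed, against 24.1% of all genes, and 0 of 10 had CPM that did not overlap between the groups, against 22.3% of all genes. DESeq2 called 0 of 10 members and 10.7% of all genes, and limma's voom 0 of 10 and 0.73%. With gene and copies summed, edgeR called 0 of 10, against 0.236% of all genes. All 10 fitted log2 fold changes were above 0, with adjusted p from 0.620 to 0.953. Without LC3b-/- F1, 9 of the 10 were below 0 and only mt-Co1 was above it, at 0.02, and the median was -0.11.

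With the counts as deposited, the 3 core subunits of complex IV, which passes electrons to oxygen, gave the highest and the lowest of the 10 fold changes. With copies summed, mt-Co1 stayed the highest and the lowest was mt-Nd5 of complex I, at 0.08. mt-Co1 had 52358, 51992, 38743 and 39906 CPM in WT and 69353, 44355 and 48832 CPM in LC3b-/-. LC3b-/- F1 was above every WT library and the other LC3b-/- libraries lay within the WT range. Its log2 fold change was 0.24 (SE 0.39, 95% confidence interval -0.66 to 1.15, edgeR adjusted p = 0.731), an interval that runs from a fold of 0.632 to a fold of 2.22.

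mt-Co2, which takes up electrons from cytochrome c, had 7365, 8252, 6126 and 5539 CPM in WT and 9108, 6295 and 6006 CPM in LC3b-/-. Summed with its copies it had 17442, 18252, 13153 and 13679 CPM in WT and 22541, 14091 and 15679 CPM in LC3b-/-. In both versions LC3b-/- F1 was the highest of the 7 libraries and the other LC3b-/- libraries lay within the WT range. The log2 fold change was 0.07 (SE 0.28, adjusted p = 0.908) as deposited and 0.16 (SE 0.32, adjusted p = 0.794) with copies summed, both by edgeR.

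mt-Co3 had 7902, 9064, 6156 and 6521 CPM in WT and 10104, 6234 and 6473 CPM in LC3b-/-. With its copy summed the levels were 18028, 19246, 13989 and 14494 CPM in WT and 23234, 14440 and 16242 CPM in LC3b-/-. The groups overlapped in the same way as for mt-Co2. The log2 fold change was 0.04 (95% confidence interval -0.64 to 0.72) as deposited and 0.13 (-0.62 to 0.88) with the copy summed, and the exact permutation p over the 35 ways of grouping the libraries was 0.943 and 0.657, two-sided, where the smallest p the design allows is 0.0286.

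mt-Cytb, the only subunit of complex III from mtDNA, had 27090, 29035, 20404 and 21760 CPM in WT and 34715, 21384 and 22668 CPM in LC3b-/-. mt-Atp6, which forms part of the proton channel of ATP synthase, had 7112, 9106, 5535 and 6168 CPM in WT and 9478, 6463 and 6452 CPM in LC3b-/- as deposited. With Atp6-ps summed these became 20804, 22585, 15692 and 16704 CPM in WT and 26644, 16862 and 18260 CPM in LC3b-/-. For both genes WT F1, WT F2 and LC3b-/- F1 formed the upper 3 libraries, 1 genotype not standing apart from the other. The log2 fold change was 0.10 for mt-Cytb (SE 0.35, edgeR adjusted p = 0.892), 0.10 for mt-Atp6 (SE 0.29, adjusted p = 0.866) and 0.12 for mt-Atp6 with its copy (SE 0.33, adjusted p = 0.853).

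The 5 complex I members encode core membrane subunits of the proton-pumping arm. mt-Nd4 had 17375, 17836, 12348 and 12818 CPM in WT and 22863, 13706 and 15355 CPM in LC3b-/-, and with Gm28439 summed 18237, 18260, 12582 and 13288 CPM in WT and 24278, 14445 and 15982 CPM in LC3b-/-. mt-Nd1 had 11340, 11559, 7289 and 7520 CPM in WT and 13792, 8368 and 9367 CPM in LC3b-/-. The same libraries were high and low as for the other complexes. mt-Nd2 ranged from 6301 to 9584 CPM in WT and from 6968 to 11603 CPM in LC3b-/-, and mt-Nd5 from 10188 to 15117 and from 11202 to 17390 CPM. The log2 fold changes were 0.16 for mt-Nd1, 0.14 for mt-Nd2, 0.20 for mt-Nd4 (0.23 with its copy), 0.08 for mt-Nd5 and 0.19 for mt-Nd6, with standard errors from 0.22 to 0.34. Their edgeR adjusted p ranged from 0.620 for mt-Nd6 to 0.896 for mt-Nd5.

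**Figure D3:**
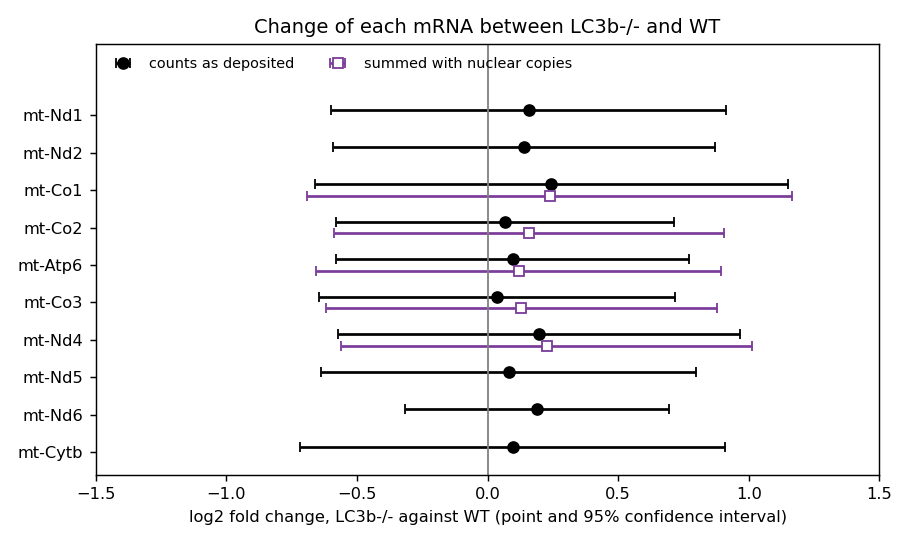
log2 fold change of each member, LC3b-/- against WT, with its 95% confidence interval (edgeR), for the deposited counts (black circles) and for sums with nuclear copies (open squares, 5 genes). Every interval spans 0, and the points lie between 0.04 and 0.24.

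The levels of the members varied together from library to library. Over the 7 libraries the Pearson correlation of log2 CPM between any pair of members lay between 0.868 (mt-Nd5 with mt-Co2) and 0.998 (mt-Nd2 with mt-Nd1), with a median of 0.946 over 45 pairs, and the lowest became 0.914 with copies summed. These are descriptions over n = 7 libraries whose members share depth and scaling. The shares of the member counts varied far less than the levels. mt-Co1 made up 33.7%, 32.2%, 34.2% and 33.6% of the member counts in WT and 34.9%, 35.5% and 36.01% in LC3b-/-, so that the groups did not overlap (WT 33.5% ± 0.852 SD, LC3b-/- 35.5% ± 0.539 SD). With copies summed its share was 27.8% to 29.1% in WT and 29.5% to 30.2% in LC3b-/-. mt-Cytb with copies summed went from 14.0%, 14.6%, 14.5% and 14.7% in WT to 14.0%, 13.8% and 13.3% in LC3b-/-, where WT F1 (14.050%) and LC3b-/- F1 (14.038%) nearly met, and as deposited the groups overlapped. The shares of all other members overlapped between the groups, as deposited and with copies summed. Shares of 1 total cannot move independently, and no test was run on them.

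The other RNAs of mtDNA were compared with the same fit. The remaining mRNAs, mt-Nd3 and mt-Nd4l (complex I) and mt-Atp8 (ATP synthase), had log2 fold changes of 0.07, 0.31 and 0.13 and edgeR adjusted p of 0.882, 0.474 and 0.754. The rRNAs of the mitochondrial ribosome lay on the other side of 0. mt-Rnr1 had 2256, 2032, 1501 and 1228 CPM in WT and 1911, 1203 and 1071 CPM in LC3b-/- (log2 fold change -0.33, SE 0.30, edgeR adjusted p = 0.533), and mt-Rnr2 4873, 4597, 3152 and 2514 CPM in WT and 4274, 2771 and 2251 CPM in LC3b-/- (-0.29, SE 0.34, adjusted p = 0.634). Neither differed beyond the spread of the libraries. The median of both stayed below 0 with any 1 library left out, but went from -0.31 to -0.61 without LC3b-/- F1, to -0.16 without WT F1 and to -0.14 without LC3b-/- M. Per 100 counts of the 10 mRNAs there were 4.59, 4.11, 4.11 and 3.15 rRNA counts in WT and 3.11, 3.18 and 2.45 in LC3b-/-. WT M1 lay among the LC3b-/- libraries, and both males were the lowest of their group. How much rRNA the selection of polyadenylated RNA kept was not measured, so this is not a ratio of amounts in the cells. The 22 tRNA genes, 59 to 75 bases long, had 0 counts in every library.

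Most nuclear subunits of the same complexes had fitted changes below 0, while those of all 10 mtDNA members were above it, a difference that was not tested. Of 79 nuclear subunits of complexes I to IV and ATP synthase, 75 had a log2 fold change below 0, against 8291 of 16990 genes tested. Their median was -0.28. By edgeR, 31 of 79 had an unadjusted p under 0.05, all in the lower direction. Of all 16990 genes tested, 1796 had such a p in the lower direction, and 24.1% had it in either direction. With 1 library left out, the 31 of 79 became 11 (without LC3b-/- F3) to 43 (without WT F1). edgeR called 0 of 79, against 0.235% of all genes, and 1 without WT F1 or 3 without LC3b-/- M. DESeq2 called 7 of 79 against 10.7% of all genes, and limma's voom called 1, Ndufa12, against 0.73%. The medians were -0.30 for 37 subunits of complex I beside 0.16 for its 5 mtDNA members, -0.28 for 9 of complex III beside 0.10 for mt-Cytb, -0.27 for 11 of complex IV beside 0.07 for its 3 members (0.16 with copies summed) and -0.25 for 18 of ATP synthase beside 0.10 for mt-Atp6 (0.12 with its copy). Complex II, which has no mtDNA subunit, had 4 of 4 subunits below 0 (median -0.27). Without LC3b-/- F1, 77 of 79 were below 0 with a median of -0.34, where 9 of the 10 mtDNA members were then also below 0. The summed nuclear subunits stood at 10509 to 13368 CPM in WT and 8696 to 10322 CPM in LC3b-/-. The 10 mtDNA genes had 14.8, 14.4, 9.49 and 8.88 counts per count of the nuclear subunits in WT and 19.9, 14.4 and 13.1 in LC3b-/-, overlapping groups. RPE markers moved in the same direction as the nuclear subunits (15 of 16 below 0, median -0.74). By edgeR, 9 of 16 had an unadjusted p under 0.05, all lower, and 2 without LC3b-/- F1 to 12 without LC3b-/- M. DESeq2 called 7 of 16 markers, while voom and edgeR with all libraries called none. The part of the RPE markers in the values of the subunits was not tested.

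**Figure D4:**
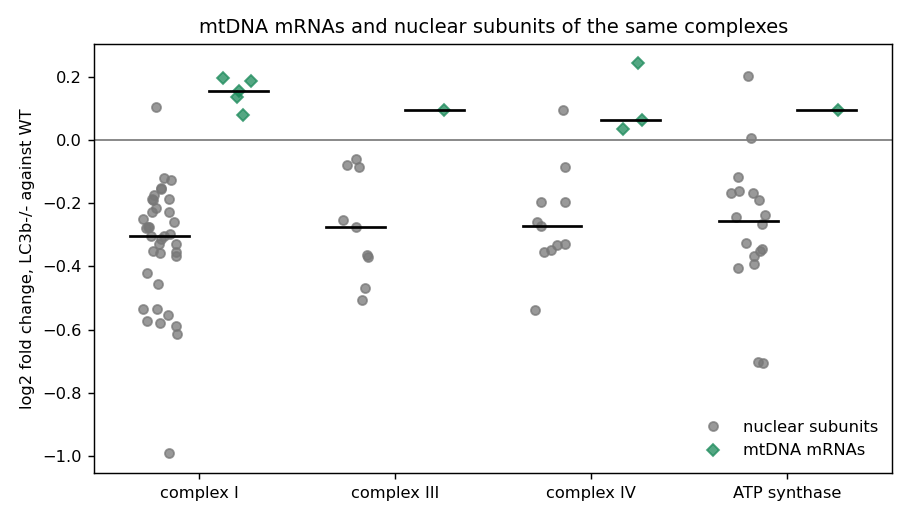
log2 fold change, LC3b-/- against WT, of single nuclear subunits (grey circles) and of mtDNA mRNAs as deposited (green diamonds) for the 4 complexes that hold both; black lines are medians. The nuclear medians lie between -0.30 and -0.25 and the mtDNA members between 0.04 and 0.24, none of them called by edgeR.

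Single nuclear genes are named by the smallest unadjusted p in each direction of a list, and edgeR called none of them with TMM scaling and all 7 libraries. In complex I, Ndufa12 was lowest in p, at 86.3 ± 9.97 CPM (SD, n = 4) in WT and 43.4 ± 6.68 CPM (n = 3) in LC3b-/- (-0.99 on the log2 scale, adjusted p = 0.0580 by edgeR), and was called by edgeR with scaling by library size alone, while Ndufa9 stood at 0.10. Sdhc of complex II stood at -0.57 (adjusted p = 0.0869), the Rieske protein gene Uqcrfs1 of complex III at -0.37 (0.122) and Cox8a of complex IV at -0.54 (0.106). On the ATP synthase list, Atp5mj stood at -0.70 (adjusted p = 0.0982) and the inhibitor gene Atp5if1 at 0.20. Cox5a stood at 0.10. All subunits of complexes II and III were below 0, so those lists name no gene in the other direction.

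Lists of nuclear genes that make and maintain mtDNA and its transcripts had medians below 0 or close to it. Of 10 genes of mtDNA transcription, 9 lay below 0 (median -0.30), among them Mterf2 at -0.58, with Polrmt, the mitochondrial RNA polymerase, at 0.05. Of 11 genes of mtDNA replication and nucleotide supply, 7 lay below 0 (median -0.18, or -0.28 without WT M1), with the thymidine kinase Tk2 at -0.31 and the polymerase Polg at 0.19. For 21 genes of mitochondrial RNA processing and stability the median was -0.03, and 0.0068 without LC3b-/- F3. Slirp, which with LRPPRC stabilises mitochondrial mRNAs, stood at -0.53 (adjusted p = 0.105) and Pde12, which removes poly(A) from them, at 0.58 (0.134). Mitochondrial translation factors split 7 to 7 (median -0.03, or 0.010 without LC3b-/- M, Mtfmt at 0.35 and Gfm2 at -0.26), and 38 of 40 complex assembly factors tested lay below 0 (median -0.34), with Cox20 at -0.50 and Atpaf2 at 0.13. Of 19 genes taken for mitochondrial mass, 14 lay below 0 (median -0.06, or -0.03 without LC3b-/- F3 or WT M1 and -0.18 without LC3b-/- F1), with the ADP/ATP carrier Slc25a4 at -0.55 and Timm44 at 0.18. edgeR called 0 genes on each of these lists, against 0.235% of all genes. At an unadjusted p under 0.05 passed, in the order given, 2 of 10, 2 of 11, 4 of 21, 0 of 14, 17 of 40 and 2 of 19 genes, against 24.1% of all genes, so that only the assembly factors exceeded that share. DESeq2 called 3 of 40 assembly factors (Ndufaf7, Lyrm7 and Uqcc3) and none on the other lists, against 10.7% of all genes, and limma's voom called none.

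Copies on chromosome 1 were among the nuclear genes whose levels followed the members most closely. Over the 7 libraries, with 16907 nuclear genes compared with the mean log2 CPM of the 10 members, the 5 highest Pearson correlations belonged to Atp6-ps (0.985), Gm29216 (0.977), Gm15867 (0.973), Gm14438 (0.967) and Rplp2-ps1 (0.966). The first 2 share reads with members, as described above. Leaving out the copies, a step added after the values were seen, brought in Pold1 (0.954), the catalytic subunit of nuclear DNA polymerase delta, and Rab40c (0.939). With 7 libraries and so many genes, values of this size are a description only.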

How the data were processed

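RNA-seq of mouse RPE gave 7 libraries, 1 per mouse (4 WT, 3 LC3b-/-), grouped by the genotype label. The authors quantified 100-base single reads with salmon against the GENCODE vM26 transcripts (GRCm39) and summed the estimates per gene with tximeta. The authors deposited these estimated counts as whole numbers, not scaled, at 24495952 to 35616134 per library; 0 columns were left unused. The options given to salmon were not given in the sources used here. Of 52740 identifiers, 51721 matched GENCODE vM39 of the same build, which supplied symbols and coordinates. A BLAST 2.17.0 search of annotated transcripts for copies required 95% identity, 100 aligned bases and 80% of the copy. Counts were analysed with edgeR 4.0.16 in R 4.3.3 (filterByExpr, TMM, quasi-likelihood test, Benjamini-Hochberg adjustment over 16990 genes); a call needs a fold change of 1.5 or more and an adjusted p below 0.05. CPM are scaled by TMM; log2 CPM use a prior count of 2. Exact permutation tests are two-sided, on log2 CPM. On data simulated from these libraries with 200 of 16990 genes changed, edgeR recovered 182. The changed genes had a mean above 10 CPM and log2 fold changes of 2 or 3 in either direction. Whether edgeR would recover differences as small as those fitted for the members was not tested. Alternatives were DESeq2 1.42.0, voom of limma 3.58.1, other scalings and filters, sex, females only, each library left out, and sums with copies. A further alternative took the mouse number as a block, with both males in 1 block. Named genes were all 10 members, the other mtDNA RNAs, per list the smallest p in each direction and any called gene, the 5 nuclear genes most correlated with the members, and Map1lc3b. The members and lists were chosen with earlier results of these data known. Separate mice are replicates. Counting error is small at these depths; the number of mice limits the precision. Figures were drawn with matplotlib 3.10.9 under Python 3.11.15.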

Additional observations from a re-analysis of the deposited data

How the results depend on the processing

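The number of called members was 0 under all 19 alternatives, with adjusted p of single members from 0.329 to 0.998 over them. No member changed direction under another tool, scaling, filter, sex as a covariate, females only, the block or sums with copies. Directions turned only where 1 library was left out: the log2 fold changes then ranged from -0.090 to 0.28 for mt-Nd1, -0.12 to 0.27 for mt-Nd2, -0.057 to 0.32 for mt-Nd4, -0.13 to 0.19 for mt-Nd5, -0.10 to 0.32 for mt-Nd6, -0.16 to 0.21 for mt-Cytb, 0.02 to 0.35 for mt-Co1, -0.15 to 0.17 for mt-Co2, -0.22 to 0.15 for mt-Co3 and -0.11 to 0.25 for mt-Atp6. With copies summed they ranged from -0.073 to 0.27 for mt-Co2, -0.10 to 0.25 for mt-Co3, -0.11 to 0.23 for mt-Atp6 and -0.038 to 0.35 for mt-Nd4. All negative values came from leaving out LC3b-/- F1, WT F3 or WT M1; without LC3b-/- F1, 9 members were below 0, without WT F3, 3, and without WT M1, 2; the cause was not tested. The difference in summed share lay between 0.239 and 2.70 percentage points.

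The mouse numbers F1 and F3 occur in both groups. Deviations from the group means correlated at 0.146 (F1) and 0.243 (F3) but as much or more between other numbers (0.463 for WT F2 with LC3b-/- F3), so the numbers were not taken as pairs. A fit with the number as a block put both males in 1 block and left WT F2 alone in its own. It thus had less left to estimate the spread from. With this block, called members stayed at 0, all called genes went from 40 to 1, and the median log2 fold change of the members was 0.23. Over all genes, calls also moved with the tool (1822 by DESeq2, 124 by voom) and with the library left out, from 11 without LC3b-/- F3 to 485 without LC3b-/- M.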
